A study of Mus musculus with 16 samples.

Results

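Transcript levels of 10 genes of the Wnt pathway, Ctnnb1, Tcf7, Lef1, Sp5, Lgr5, Axin2, Nkd1, Notum, Znrf3 and Rnf43, were followed in hepatoblasts under sorafenib. They were taken by name from the 40840 genes of the count table, and the rule itself uses no measured value, although the genes were proposed with earlier results of these data known. All 10 were present and had at least 10 counts over the 16 libraries, the minimum for a test. The cells were p53-/-; Myc hepatoblasts, that is progenitor cells of the mouse liver without the tumor suppressor p53 and with overexpressed Myc, an oncogene, in a line labelled as HCC (hepatocellular carcinoma). All 4 groups shared this genotype and came from this 1 line. They were vehicle (DMSO) for 48 hours, sorafenib for 48 hours, DMSO for 7 days and sorafenib for 7 days, with 4 replicates each. Sorafenib is a multikinase inhibitor given to patients with HCC, and the study asked how it changes metabolism and mitochondrial function. The labels do not say whether replicates were separate cultures, and p-values therefore measure only the spread between these libraries.

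In canonical Wnt signaling, β-catenin is normally held low by a destruction complex of axin, APC and kinases. Wnt binding to Frizzled receptors and their LRP co-receptors halts this complex, and β-catenin then enters the nucleus and turns on genes through TCF/LEF factors. Many of these targets feed back on the pathway. Axin2 rebuilds the destruction complex, Nkd1 acts on Dishevelled, Notum removes the lipid that Wnt ligands need, and Znrf3 and Rnf43 remove Frizzled from the membrane unless R-spondins, bound to Lgr receptors, stop them. In the adult liver the pathway is known for the gene program of hepatocytes around the central vein, and mutations that activate it are common in HCC.

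Poly(A) RNA was sequenced as stranded libraries, and counts per library ranged from 16586254 to 30828427. Trp53 had 1766 to 4147 normalized counts and Myc 6390.3 to 15245, where a normalized count is a count scaled to a common library size. Transcript counts alone cannot show whether Trp53 is knocked out. Of 8 hepatoblast markers, Dlk1 reached 32979 normalized counts and Krt19 was at 973 or more in every library, whereas Hnf4a was at 0 in all 16 libraries and Afp at no more than 13. The label was therefore borne out by some of its markers only. The summed hepatoblast markers were 34811 to 36175 with DMSO and 12242 to 14015 with sorafenib at 48 hours, and 18304 to 20167 and 6039 to 6306 at 7 days. Most of this sum was Dlk1, and without Dlk1 it was 3196 to 3437 and 2376 to 2593 at 48 hours, and 2274 to 2352 and 2100 to 2230 at 7 days. Sox9, of the same list, went the other way, with log2 fold changes of 1.64 and 1.37. The 4 endothelial markers summed to at most 21.6 and the 4 blood markers to at most 12.1. Of 4 stellate or fibroblast markers, Lrat was at 0 throughout, and Pdgfrb, Dcn and Des were present. Their sum was 3868 to 3928 with DMSO and 3839 to 3965 with sorafenib at 48 hours, but 5555 to 5831 and 1416 to 1526 at 7 days. Within the sum at 48 hours Dcn rose from a mean of 2134 to 2868 and Pdgfrb fell from 1668 to 977, while at 7 days Dcn, Pdgfrb and Des were all lower with sorafenib. The part of these marker shifts in the results below was not tested. In bulk samples, fewer cells of a type and less RNA per cell cannot be told apart. In 1 library, replicate 2 of sorafenib for 48 hours, genes on chromosomes 15 to 19 and X were lower by 0.73 on the log2 scale than those on chromosomes 1 to 13, each relative to the other 3 libraries of the group. None of the 10 genes lies there, although the scaling of that library raises genes elsewhere. Myc and the markers Krt8, Krt18, Epcam and Pdgfrb do lie there, and their values above include that library. With sorafenib at 48 hours Pdgfrb ranged from 688 to 1109 normalized counts, with a median of 1056.

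The 120 bases before the RefSeq start of 4 of these genes (GRCm38.p6) are shown because the same factors are known to act on all of them, while their transcripts differed in direction at 48 hours. Sp5 lies at chr2:70474803-70474922, Axin2 at chr11:108920229-108920348, Lef1 (the first of 4 starts) at chr3:131110177-131110296 and Nkd1 at chr8:88527513-88527632, all on the plus strand. Capitals mark a TCF/LEF word.
Sp5: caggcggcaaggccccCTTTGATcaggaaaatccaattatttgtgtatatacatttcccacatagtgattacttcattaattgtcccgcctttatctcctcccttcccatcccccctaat
Axin2: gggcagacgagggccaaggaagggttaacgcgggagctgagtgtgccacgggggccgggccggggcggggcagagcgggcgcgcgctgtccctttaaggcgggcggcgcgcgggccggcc
Lef1: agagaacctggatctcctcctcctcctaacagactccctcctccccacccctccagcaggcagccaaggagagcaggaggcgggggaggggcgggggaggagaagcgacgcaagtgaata
Nkd1: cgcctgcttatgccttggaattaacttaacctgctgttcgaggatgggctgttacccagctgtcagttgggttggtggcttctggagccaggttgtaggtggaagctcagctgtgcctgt

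The words searched were CTTTGAT and CTTTGAA on both strands, in windows of 300 bases (250 before and 50 after a start). Of the 10 genes, 7 had entries, with 13 windows. Only the Sp5 window held a word, CTTTGAT on the gene's strand, beginning 104 bases before the start. One or the other word was in 8.65% of all 32851 windows and in at least 1 window of 9.88% of 27025 genes. A match is a description of letters and not a binding site, and windows this short leave out most regulatory sequence. The windows differed in composition, with 45.0% G and C for Sp5, 58.3% for Nkd1, 67.3% for Lef1 and 70% for Axin2.

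After 48 hours of sorafenib, Axin2, Lef1, Lgr5, Sp5 and Ctnnb1 were lower and Nkd1 and Notum were higher than with DMSO. After 7 days, Axin2, Lef1, Lgr5, Ctnnb1, Nkd1 and Znrf3 were lower and Notum and Tcf7 were higher. The threshold for a call was an FDR (Benjamini-Hochberg, over the 20444 genes tested) below 0.05 in the quasi-likelihood test of edgeR. At 48 hours 5 of the 10 genes were thus lower and 2 higher, where 27.7% of all tested genes were lower and 26.9% higher. At 7 days 6 were lower and 2 higher, where 27.9% of all genes were lower and 28.9% higher. The median log2 fold change of the 10 genes was -0.91 at 48 hours, against -0.05 over all genes. This value lay between those of Lef1 (-1.63) and Ctnnb1 (-0.19). Without Rnf43, which was not called and had 10 counts over the 16 libraries, the median at 48 hours was that of Ctnnb1, -0.19. At 7 days the median of the 10 genes was -0.62, or -0.46 without Rnf43, which had too few counts for a fold, against 0.02. Libraries of sorafenib and DMSO did not overlap for 7 of the 10 genes at 48 hours, where 48.0% of all genes did not overlap, and for 7 of 10 at 7 days, where 56.8% did not. How often a gene was called moved with its level. At 48 hours 18.5% of genes that averaged under 10 normalized counts were called, 54.9% of those at 10 to 100, 74.2% at 100 to 1000 and 78.2% at 1000 or more. Of the 10 genes, 5 had at least 100 normalized counts, 2 had 10 to 100 and 3 had under 10. The plot of log2 fold changes gives all 10 genes at both times.

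**Figure D1:**
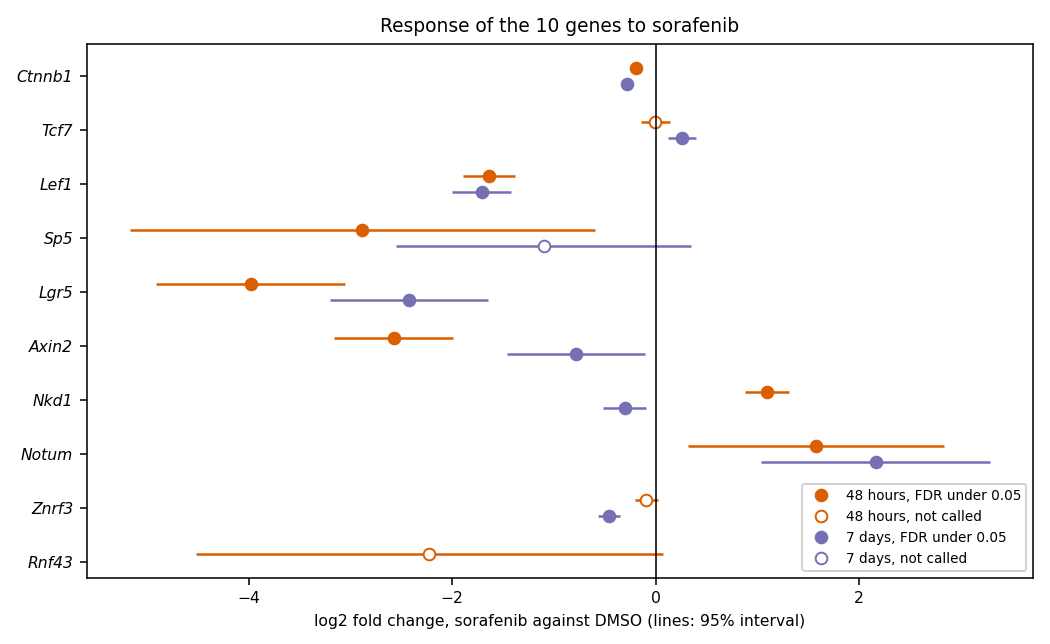
Log2 fold change of each gene, sorafenib against DMSO, at 48 hours (orange) and 7 days (purple), from edgeR with 4 libraries per group. Filled points have an FDR under 0.05, open points do not, lines are 95% intervals, and Rnf43 at 7 days is left out since both groups had at most 1 count. Lgr5 and Lef1 lie left of 0 at both times and Notum right of 0, whereas Nkd1 lies right at 48 hours and left at 7 days.

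The levels of the 10 genes spanned a wide range. Per kilobase of exon, which allows genes to be compared, Ctnnb1 stood at 102 CPM (counts scaled by library size) per kilobase with DMSO at 48 hours, above 98.7% of 17941 genes. Tcf7 and Znrf3 followed at 5.05 ± 0.261 (SD, n = 4) and 4.84 ± 0.188, and their libraries overlapped. Lef1 at 1.26 ± 0.0471 and Nkd1 at 1.16 ± 0.102 also overlapped. Axin2 at 0.576, Lgr5 at 0.118 and Sp5 at 0.057 CPM per kilobase came next, each separate from its neighbours. Notum and Rnf43 were lowest, at 0.0186 and 0.0111, and overlapped. The lowest library of Sp5 (0.0324) barely cleared the highest of Notum (0.0323), at a few counts each. With sorafenib at 48 hours the order changed below Znrf3. Nkd1, at 2.50 CPM per kilobase, then stood above Lef1, at 0.407, with no overlap. Notum, at 0.058, stood above Lgr5, at 0.00716, with no overlap. With DMSO at 7 days Znrf3, at 5.64, stood above Tcf7, at 3.48 CPM per kilobase, with no overlap, and with sorafenib at 7 days these genes overlapped again at 4.11 and 4.17.

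**Figure D2:**
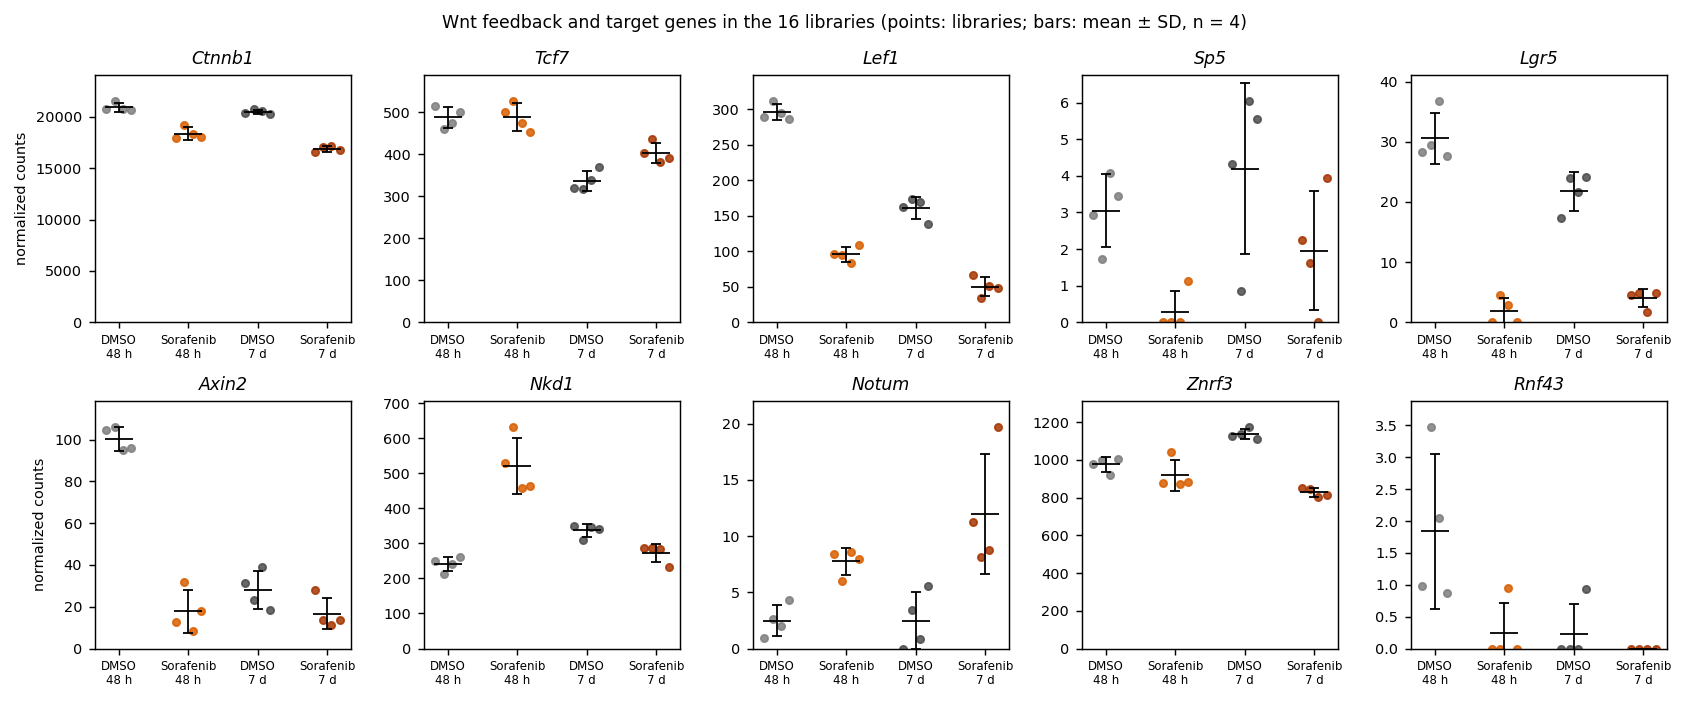
Normalized counts (linear axes from 0) of the 10 genes in each of the 16 libraries, by treatment and time. Points are libraries and bars the mean ± SD of 4 libraries. Lef1 and Lgr5 are lower with sorafenib than with DMSO in every library of the same time, and Axin2 with DMSO is lower at 7 days than at 48 hours.

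Ctnnb1 encodes β-catenin, the coactivator of the pathway, whose activity is set mostly at the level of the protein and which also links cadherins to the cytoskeleton. It lies on chromosome 9 of GRCm39 from 120757422 to 120789579, and 9.37% of its exon bases are shared with Ulk4 on the other strand. At 48 hours its normalized counts were 20812, 21536, 20719 and 20621 with DMSO and 17922, 19233, 18316 and 17991 with sorafenib. At 7 days they were 20331, 20728, 20607 and 20318 with DMSO and 16568, 17058, 17113 and 16759.6 with sorafenib. Each library with sorafenib was below each with DMSO, by a small margin. The log2 fold change was -0.19 (SE 0.0271, FDR 5.63e-06 from edgeR) at 48 hours and -0.28 (SE 0.0271, FDR 2.12e-08) at 7 days. Ctnnb1 thus stayed at 0.878 and 0.823 times its level with DMSO. The interaction, that is the response at 7 days minus that at 48 hours, was -0.09 (FDR 0.0675, 95% interval -0.18 to -0.01).

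Lef1 encodes a TCF/LEF factor that is itself a Wnt target, and it lies on chromosome 3 from 130903919 to 131018005. Its normalized counts at 48 hours were 289, 311, 295 and 287 with DMSO and 95.4, 95.3, 82.8 and 109 with sorafenib. At 7 days they were 162, 173, 169 and 138 with DMSO and 66.4, 34.1, 51.6 and 48.2 with sorafenib. All libraries with sorafenib were below all with DMSO at the same time, and those with DMSO at 7 days were below those at 48 hours. Lef1 fell 3.10-fold at 48 hours (log2 fold change -1.63, SE 0.117, FDR 2.39e-10 from edgeR) and 3.27-fold at 7 days (-1.71, SE 0.134, FDR 9.15e-10). The responses differed by -0.08 on the log2 scale (FDR 0.795, interval -0.47 to 0.32). In GENCODE vM39, 16.3% of its exon bases are shared with the antisense gene Lef1os1, and the strand setting of the counting is not given in the sources used here.

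Tcf7 encodes TCF1, another TCF/LEF factor, and lies on chromosome 11 from 52143107 to 52174619. At 48 hours its normalized counts were 515, 459.8, 474 and 501 with DMSO and 501, 526, 474 and 452 with sorafenib. At 7 days they were 320.0, 316, 338 and 369 with DMSO and 403, 435, 381 and 391 with sorafenib. The groups overlapped at 48 hours and were separate at 7 days, with sorafenib higher. The log2 fold change at 48 hours was -0.00 (FDR 0.983, interval -0.14 to 0.14), and at 7 days Tcf7 was 1.20-fold higher (0.26, SE 0.0655, FDR 0.00194). The interaction was 0.26 (FDR 0.0289). It was not called without replicate 1 or 2 of DMSO for 7 days (FDR 0.0578 and 0.0665) or replicate 2 of sorafenib for 7 days (0.0744).

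Lef1 and Tcf7 were also set beside the other members of their family, Tcf7l1 and Tcf7l2, per kilobase of exon. The sum of the 4 genes was 22.1 ± 0.547 CPM per kilobase with DMSO and 17.0 ± 0.946 with sorafenib at 48 hours, and 16.4 ± 0.594 and 14 ± 0.651 at 7 days. Lef1 made up 5.69 ± 0.262% of this sum with DMSO and 2.39 ± 0.273% with sorafenib at 48 hours, and 4.17 ± 0.523% and 1.52 ± 0.369% at 7 days. Tcf7 made up 22.8 ± 1.37% and 29.7 ± 1.08% at 48 hours, and 21.1 ± 1.05% and 29.7 ± 1.49% at 7 days. For both genes the shares did not overlap between treatments at either time (exact two-sided permutation test, p = 0.0286 each, the smallest that 4 libraries against 4 allow). The largest share was that of Tcf7l1, a factor often described as a repressor, with 60.5% and 55.1% at 48 hours and 57.1% and 53.4% at 7 days. Tcf7l2 lies in the lowered region of 1 library with sorafenib, where its share was 7.8%, against 14.1 to 14.8% in the other 3. Without that library the shares with sorafenib at 48 hours were 2.45% for Lef1, 29.6% for Tcf7, 53.4% for Tcf7l1 and 14.5% for Tcf7l2. The plot of the TCF/LEF family shows the levels and shares.

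**Figure D3:**
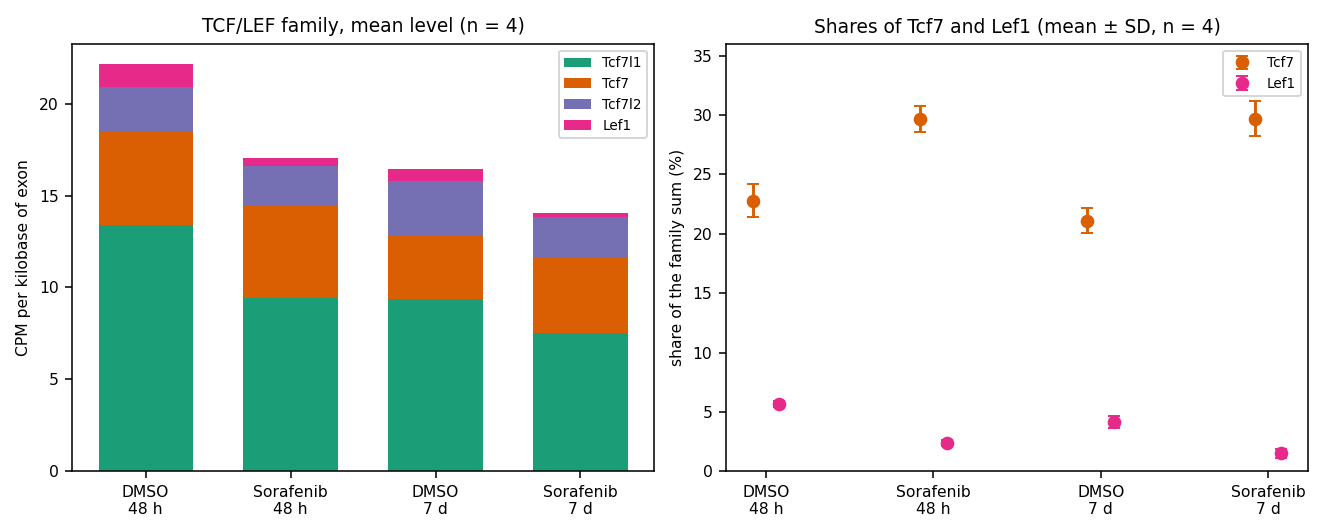
Left, mean level of each TCF/LEF gene in CPM per kilobase of exon, stacked, in the 4 groups (4 libraries each). Right, shares of Tcf7 and Lef1 in the family sum, in percent, as mean ± SD of 4 libraries. The share of Lef1 is lower and that of Tcf7 higher with sorafenib at both times.

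Sp5 encodes a zinc finger factor and Wnt target, and lies on chromosome 2 from 70305267 to 70308073. It had very few counts, namely 3, 2, 4 and 4 with DMSO and 0, 0, 0 and 1 with sorafenib at 48 hours. At 7 days Sp5 had 4, 1, 7 and 6 counts with DMSO and 2, 2, 0 and 4 with sorafenib. The summed counts at 48 hours were 13 and 1, a ratio of 0.10 after scaling (95% interval from counting alone 0.00236 to 0.668). edgeR called Sp5 at 48 hours (FDR 0.0254) but not at 7 days (FDR 0.172), when the ratio was 0.449 (0.169 to 1.09). Without replicate 1 or 3 of sorafenib for 48 hours the FDR was 0.0545 or 0.0749. Whether the response of Sp5 differed between the times was not detectable at this depth (interaction FDR 0.307).

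Lgr5 encodes a receptor for R-spondins that marks Wnt-responsive stem cells in several tissues, and lies on chromosome 10 from 115286216 to 115423685. At 48 hours it had 29, 34, 36 and 32 counts with DMSO and 0, 3, 3 and 0 with sorafenib. At 7 days Lgr5 had 16, 28, 25 and 26 counts with DMSO and 4, 6, 2 and 5 with sorafenib. No library with sorafenib reached any with DMSO at either time. The ratio of summed counts after scaling was 0.0598 (95% interval from counting 0.0215 to 0.134) at 48 hours and 0.181 (0.101 to 0.305) at 7 days. The log2 fold change was -3.98 (SE 0.425, FDR 9.54e-08 from edgeR) and -2.42 (SE 0.355, FDR 6.45e-06). The interaction was 1.55 (FDR 0.084, interval 0.07 to 3.04). It was called without replicate 2 of sorafenib for 48 hours (2.18, FDR 0.021) and without replicate 3 of sorafenib for 7 days (1.81, FDR 0.044). Lgr5 was a minor R-spondin receptor of these cells, at 1.51% of the sum of Lgr4, Lgr5 and Lgr6 per kilobase with DMSO and 0.119% with sorafenib at 48 hours. Lgr4 made up 98.0% to 99.4% of that sum in the 4 groups.

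Axin2 encodes a scaffold of the destruction complex and is widely used as a readout of canonical Wnt signaling. It lies on chromosome 11 from 108811169 to 108841609. Its counts at 48 hours were 107, 122, 93 and 111 with DMSO and 9, 21, 9 and 16 with sorafenib. At 7 days Axin2 had 29, 27, 45 and 20 counts with DMSO and 25, 17, 13 and 14 with sorafenib. The groups were far apart at 48 hours and overlapped at 7 days, when the control itself was low. In normalized counts, Axin2 stood at 100.3 ± 5.69 (SD, n = 4) with DMSO and 17.8 ± 10.1 with sorafenib at 48 hours, and at 28 ± 8.98 and 16.8 ± 7.65 at 7 days. It was 5.95-fold lower with sorafenib at 48 hours (log2 fold change -2.57, SE 0.268, FDR 6.75e-08 from edgeR). With DMSO it was 3.58-fold lower at 7 days than at 48 hours (-1.84, SE 0.226, FDR 9.58e-07).

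The response of Axin2 to sorafenib at 7 days was smaller, at -0.78 (SE 0.313, FDR 0.0399), and its exact permutation test gave a two-sided p of 0.0857. That call was lost with any of 5 libraries left out, replicates 1 and 3 of DMSO and 2, 3 and 4 of sorafenib for 7 days (FDR 0.0811, 0.166, 0.101, 0.121 and 0.09), and the log2 fold change of Axin2 ranged from -1.10 to -0.56. The interaction was 1.79 (SE 0.439, FDR 0.00285) and was called with each library left out. At 48 hours replicate 2 of sorafenib was the highest of its group for Axin2, at 31.8 normalized counts, and without it the log2 fold change was -2.95. Per kilobase, Axin2 made up 5.12 ± 0.349% of the sum of Axin1 and Axin2 with DMSO at 48 hours and 1.35 ± 0.433% with DMSO at 7 days.

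Among the 10646 genes that averaged 100 normalized counts or more, the pattern most like that of Axin2 was that of Garem2. Likeness was measured as the root mean square difference of centred log2 normalized counts over the 16 libraries, which for Garem2 was 0.448. Pdk2 (0.458), Rap1gap (0.495), Egln3 (0.547) and Ccng2 (0.56) followed. Their log2 fold changes at 48 hours ran from -2.83 (Rap1gap) to -1.98 (Pdk2) and at 7 days from -1.50 (Egln3) to -0.74 (Rap1gap). None of them belongs to the Wnt lists used here, which hold few of the 10646 genes, and nothing is read from this. Lgr5 and Sp5, which averaged 14.5 and 2.37 normalized counts, were below the minimum and could not be among them.

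Nkd1 encodes a cytoplasmic inhibitor that binds Dishevelled and is induced by Wnt. It lies on chromosome 8 from 89247890 to 89324577. At 48 hours its normalized counts were 250.2, 212, 242 and 261 with DMSO and 528, 631, 459 and 462 with sorafenib. At 7 days they were 349, 308, 348 and 341 with DMSO and 286, 288, 283 and 232 with sorafenib. The groups did not overlap at either time, and the direction was opposite. Nkd1 was 2.14-fold higher at 48 hours (log2 fold change 1.10, SE 0.0978, FDR 6.66e-09 from edgeR) and 1.23-fold lower at 7 days (-0.30, SE 0.0978, FDR 0.0121). The interaction was -1.40 (SE 0.138, FDR 9.92e-08). The fall at 7 days was not called without replicate 4 of sorafenib (-0.24, FDR 0.0527). Nkd2, its paralog, was lower at 48 hours (log2 fold change -0.98, FDR 0.00671), and Nkd1 made up 85% to 96% of the sum of both per kilobase in the 4 groups.

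Notum encodes a secreted enzyme that inactivates Wnt ligands by removing their lipid, and lies on chromosome 11 from 120541446 to 120552019. Its counts were low, at 1, 3, 2 and 5 with DMSO and 6, 4, 9 and 7 with sorafenib at 48 hours. At 7 days Notum had 0, 4, 1 and 6 counts with DMSO and 10, 10, 10 and 20 with sorafenib. After scaling, each library with sorafenib was above each with DMSO at the same time. The ratio of summed counts was 3.08 (95% interval from counting 1.47 to 6.92) at 48 hours and 4.6 (2.36 to 9.79) at 7 days. edgeR called Notum at both times (FDR 0.0265 and 0.0013). The call at 48 hours was lost with any of 5 libraries left out, replicate 1 or 3 of DMSO or replicate 1, 3 or 4 of sorafenib (FDR 0.052 to 0.0788). Of its exon bases, 38.3% are shared with the antisense gene Notumos and 10.4% with Myadml2os, which have no row of their own in the table, and reads of these genes cannot be told apart if strand was not used in counting.

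Znrf3 and Rnf43 encode related membrane E3 ligases that clear Frizzled receptors. Znrf3 lies on chromosome 11 from 5226324 to 5394939. Its normalized counts at 48 hours were 978, 1000.3, 921 and 1002 with DMSO and 878, 1040.4, 873 and 880.2 with sorafenib. At 7 days they were 1126, 1138, 1172 and 1109 with DMSO and 851, 845, 802 and 816 with sorafenib. At 48 hours replicate 2 of sorafenib was above all libraries with DMSO while the other 3 were below them, and at 7 days the groups were separate. Znrf3 was 1.37-fold lower at 7 days (log2 fold change -0.46, SE 0.0505, FDR 1.49e-07 from edgeR). At 48 hours its log2 fold change was -0.09 (SE 0.0515, FDR 0.141), but -0.16 (FDR 0.00202) without replicate 2 of sorafenib and -0.12 (FDR 0.0174) with libraries scaled on chromosomes 1 to 13. It was also called with voom, total counts, at least 10 counts in every sample, or without replicate 3 of DMSO (FDR 0.0123, 0.0212, 0.0248 and 0.0226). The interaction was -0.36 (SE 0.0721, FDR 0.000428).

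Rnf43 lies on chromosome 11 from 87553548 to 87626377. It had 1, 4, 2 and 1 counts with DMSO and 0, 0, 1 and 0 with sorafenib at 48 hours. At 7 days a single library with DMSO had 1 count of Rnf43 and the libraries with sorafenib had 0. The ratio at 48 hours was 0.163 (95% interval from counting 0.00368 to 1.22), and it was not called (FDR 0.0872). At 7 days both groups were at or under the floor of 3 counts, and no fold is given. Of Znrf3 and Rnf43 together, per kilobase, Znrf3 made up 99.8% or more in every group.

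In the vehicle 5 of the 10 genes also moved, a share near that of all genes. From 48 hours to 7 days in DMSO, Axin2, Lef1 and Tcf7 were lower and Nkd1 and Znrf3 higher, 3 and 2 of the 10 genes, where 25.5% of all genes were lower and 23.9% higher. Lef1 fell by 0.88 (FDR 5.2e-07) and Tcf7 by 0.54 (FDR 6.77e-07) on the log2 scale, while Nkd1 rose by 0.48 (FDR 0.000399) and Znrf3 by 0.22 (FDR 0.00097). Time in culture and harvest cannot be told apart in this comparison. It shares its libraries with the responses to sorafenib at both times, and the interaction rests on the same libraries. Called for the interaction were 4 of the 10 genes, Axin2, Nkd1, Tcf7 and Znrf3, where 36.8% of all genes were.

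The rest of the pathway was described with lists drawn up by role. Beside their counts stand the shares over all tested genes, 27.7% lower and 26.9% higher at 48 hours and 27.9% lower and 28.9% higher at 7 days. Genes that averaged 100 normalized counts or more were called more often, in 74.2% to 78.2% of cases in either direction at 48 hours and 74.2% to 78.1% at 7 days, and each list's number of such genes is therefore given. Wnt ligands numbered 19, of which 14 had enough counts for a test. At 48 hours 4 were higher and 3 lower (28.6% and 21.4%), and at 7 days 4 were higher and 5 lower (28.6% and 35.7%), shares near those over all genes. Of the 14, 5 averaged at least 100 normalized counts. Wnt2b fell from 484 ± 24.1 to 221 ± 31.8 normalized counts at 48 hours (log2 fold change -1.14) and from 527 ± 17.2 to 71.7 ± 6.88 at 7 days (-2.87). Wnt10b rose from 23.1 ± 3.46 to 107 ± 21.9 at 48 hours (2.23) and from 40.9 ± 6.63 to 173 ± 11.8 at 7 days (2.09). Its gene lies in the lowered region, and leaving out replicate 2 of sorafenib moved the log2 fold change at 48 hours to 2.35. The median of the ligands was 0.20 at 7 days and 0.02 at 48 hours (0.09 without replicate 2 of sorafenib), or -0.08 at 48 hours with Wnt7a at its bound and Wnt1 left out, each of which had 0 counts with DMSO at 48 hours.

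Of 15 Frizzled receptors and co-receptors, 14 were tested, 13 of them at 100 normalized counts or more. At 48 hours 8 were lower and 4 higher (57.1% and 28.6%, against 27.7% and 26.9% of all genes), with a median log2 fold change of -0.33. At 7 days 12 were lower and 1 higher (85.7% and 7.14%, against 27.9% and 28.9%), with a median of -0.55. Fzd4 went from 2553 to 1683 normalized counts at 48 hours (-0.60) and from 2686 to 945 at 7 days (-1.51). Fzd3 changed by -0.48 and -1.54, and Ror1, a receptor for noncanonical Wnt signals, by -0.77 and -0.87. Fzd6 was the receptor that rose at both times, by 1.35 at 48 hours (1.47 without replicate 2 of sorafenib) and 0.94 at 7 days. Frizzled receptors are what Znrf3 and Rnf43 act on.

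The R-spondins Rspo1 and Rspo3, secreted ligands of Lgr receptors that spare Frizzled from these ligases, were lower with sorafenib at both times. Rspo1 had 1888, 1742, 1826 and 1806 normalized counts with DMSO and 692, 827, 691 and 720.0 with sorafenib at 48 hours. At 7 days Rspo1 had 2049, 2016, 2035 and 2053 with DMSO and 78.7, 80.4, 74.3 and 76.7 with sorafenib. On the log2 scale Rspo1 changed by -1.31 (FDR 4.66e-15 from edgeR) and -4.71 (FDR 1.39e-21), a response that was larger at 7 days (interaction -3.40). Rspo3 had 833, 866, 888 and 830.4 normalized counts with DMSO and 179.6, 216, 208 and 198 with sorafenib at 48 hours. At 7 days Rspo3 had 363, 409, 363 and 373 with DMSO and 55.1, 39.8, 40.2 and 52.1 with sorafenib (-2.09 and -3.03). Of the 7 tested genes of Wnt secretion, R-spondins and their receptors, 4 averaged at least 100 normalized counts. At 48 hours 5 were lower and 1 higher (71.4% and 14.3%, against 27.7% and 26.9% of all genes). The median log2 fold change was -0.55 (-1.06 without replicate 2 of sorafenib). This -0.55 was the value of Lgr6, which had 0 to 11 counts per library at 48 hours and was not called (FDR 0.433 from edgeR). At 7 days 4 were lower and 2 higher (57.1% and 28.6%, against 27.9% and 28.9%), with a median of -0.29.

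Within the cell, the 11 Dishevelled and destruction complex genes were all tested, and all averaged at least 100 normalized counts. At each time 7 of the 11 were called, a share below that of all genes at such levels. At 48 hours 5 were higher and 2 lower (45.5% and 18.2%, against 26.9% and 27.7% of all genes), or 7 and 2 without replicate 2 of sorafenib, a value added after seeing the data. At 7 days 5 were higher and 2 lower (45.5% and 18.2%, against 28.9% and 27.9%). The medians were 0.13 (0.28 without that library) and 0.20. Dvl1, a Dishevelled, rose by 0.44 and 0.35, and Amer1, an X-linked partner of the complex, fell by 1.02 (0.88 without replicate 2 of sorafenib) and 1.38 on the log2 scale. Btrc, the ligase adaptor that recognizes β-catenin, was not called at 48 hours (-0.11, FDR 0.394) and was higher at 7 days (0.49). Of 11 nuclear partners and co-repressors, 10 averaged at least 100 normalized counts. At 48 hours 8 were lower and 2 higher (72.7% and 18.2%, against 27.7% and 26.9% of all genes), and at 7 days 7 were lower and 1 higher (63.6% and 9.09%, against 27.9% and 28.9%), with medians of -0.52 and -0.32. Tle3, a co-repressor of TCF/LEF factors, changed by -1.09 and -0.62, and Bcl9, a co-activator, by -0.68 and -1.16. Pygo1, which works with Bcl9, went the other way, by 0.87 and 2.45. Per kilobase, Pygo1 stood at 0.111 to 0.606 CPM in the 4 groups and its paralog Pygo2 at 21.4 to 24.7. Pygo2 changed by -0.206 (FDR 0.000766 from edgeR) and 0.005 (FDR 0.945).

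Of 15 secreted antagonists and their receptors, 12 were tested, 5 of them at 100 normalized counts or more. At 48 hours 4 were higher and 3 lower (33.3% and 25%) and at 7 days 4 and 4 (33.3% each), shares near the 26.9% and 27.7%, and the 28.9% and 27.9%, of all genes. Their medians were 0.35 and 0.18, or 0.34 at 7 days without Sfrp5, which had too few counts for a fold. Sfrp1 and Sfrp4, both secreted Frizzled-related proteins that bind Wnt, changed in opposite directions. Sfrp1 fell from 4541 ± 61.1 to 1417 ± 100.4 normalized counts at 48 hours (-1.68) and from 2404 ± 124 to 283 ± 11.8 at 7 days (-3.09). Sfrp4 rose from 25.7 ± 7.88 to 229.8 ± 10.3 at 48 hours (3.13) and from 63.1 ± 5.83 to 366 ± 6.08 at 7 days (2.53). Sfrp2, the highest of this family per kilobase with DMSO (57.3 and 48.8 CPM), was lower like Sfrp1 (-0.565 and -2.38). All 5 β-catenin junction partners averaged at least 100 normalized counts. At 48 hours 3 were higher and 0 lower (60% and 0%, against 26.9% and 27.7% of all genes). Without replicate 2 of sorafenib, 4 were higher and 0 lower at 48 hours. At 7 days 2 were higher and 1 lower (40% and 20%, against 28.9% and 27.9%). The medians were 0.30 (0.24 without that library) and -0.04. Jup, the β-catenin relative plakoglobin, changed by 0.44 and -0.82. The cadherin Cdh2 rose by 0.37 (0.52 without replicate 2 of sorafenib) and 0.58. Cdh1 was not called at 48 hours (0.30, FDR 0.0508) and rose by 1.39 at 7 days.

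Other genes described as Wnt targets did not all share the direction of Lef1 and Lgr5. Of 8 such genes, 5 averaged at least 100 normalized counts. At 48 hours 4 were higher and 2 lower (50% and 25%, against 26.9% and 27.7% of all genes), with a median log2 fold change of 0.60, and at 7 days 4 were higher and 1 lower (50% and 12.5%, against 28.9% and 27.9%), with a median of 0.51. Ccnd1, the cyclin of the G1 phase, had 3730 ± 103 normalized counts with DMSO and 9919 ± 275 with sorafenib at 48 hours, and 3166 ± 21.7 and 14735 ± 480 at 7 days (1.41 and 2.22). Cd44, a cell surface receptor for hyaluronan, had 523 ± 15.8 and 4703 ± 274 at 48 hours and 2089 ± 134 and 10049 ± 285 at 7 days (3.17 and 2.27). Both genes also answer to many signals other than Wnt. Of 8 pericentral hepatocyte genes, 3 were tested, 2 of them at 100 normalized counts or more. At 48 hours 2 were lower and 0 higher (66.7% and 0%, against 27.7% and 26.9% of all genes), with a median of -1. At 7 days 3 were lower (100%, against 27.9%), with a median of -1.4. The smallest of the 3 changes at 7 days was -0.17. Glul, glutamine synthetase, changed by -1 and -1.40, and Slc1a2, a glutamate transporter, by -3.08 and -3.63. The plot of the Wnt lists sets these groups side by side.

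**Figure D4:**
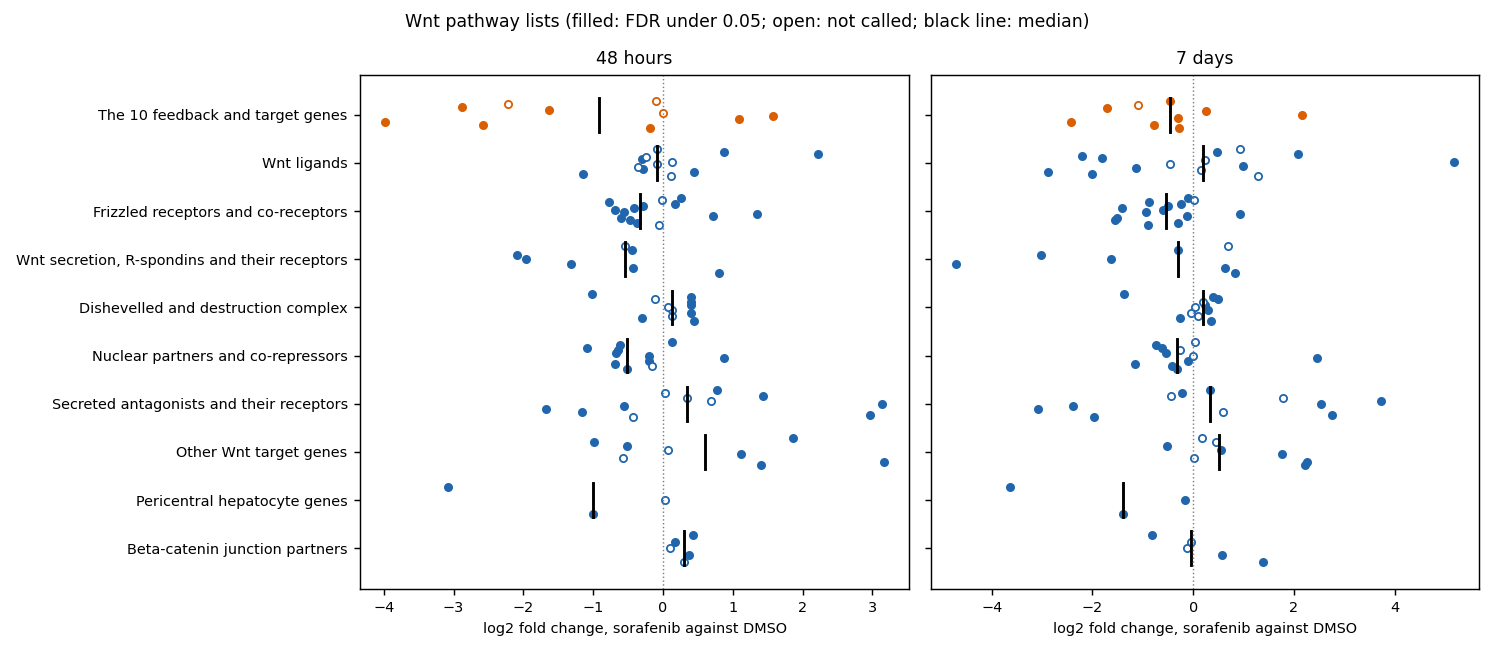
Log2 fold change, sorafenib against DMSO, of each tested gene in the Wnt lists at 48 hours (left) and 7 days (right), from edgeR with 4 libraries per group. Filled points have an FDR under 0.05, open points do not, black lines are medians of the genes drawn, and genes with a group at 0 counts or both groups at 3 counts or fewer are left out. Most Frizzled receptors and co-receptors lie left of 0 at 7 days, and the other Wnt target genes have medians of 0.60 and 0.51.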

How the data were processed

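The deposited values are whole-number counts per gene, with no normalization or pooling. Per the submitters' processing notes, the authors used STAR 2.7.1a with GRCm39 (mm39), featureCounts 2.0.6 from Subread and DESeq2 1.40.2. The strand setting and annotation are not given in the sources used here. Libraries were made with the Illumina Stranded mRNA Prep kit.

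Genes with fewer than 10 counts in total were removed (20396 genes), as in the study, which left 20444. The test was the quasi-likelihood test of edgeR 4.0.16 in R 4.3.3, with TMM scaling, in 1 model of the 4 groups, with Benjamini-Hochberg adjustment over all genes and a threshold of 0.05. Normalized counts are counts divided by the library's effective size, relative to its geometric mean over the 16 libraries. Intervals are 95%, with 12 residual degrees of freedom for log2 fold changes and exact binomial limits for ratios of summed counts. The standard error (SE) of a log2 fold change is its absolute value divided by the square root of the F statistic of the test. These SEs, and the intervals of log2 fold changes built on them, are approximate at low counts. Intervals on counts and the floor of 3 counts, over a group, cover counting error only. Permutation tests were exact and two-sided, on log2(normalized count + 0.5) for genes and on the percentages for shares. No 2 libraries of 1 group were as alike as counting error alone would make them (chi-square per gene at least 1.58, against 1 for counting error).

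Positions and exon lengths came from GENCODE vM39 on GRCm39, in which 32251 of 40840 genes matched by symbol. Promoter sequences came from RefSeq on GRCm38.p6. Named were the 10 genes, Myc and Trp53, from each list the 2 genes with the largest change at either time among called genes with at least 50 normalized counts, and the 5 genes most like Axin2. Other genes were named where a count or share rested on them (Nkd2, Tcf7l1, Tcf7l2, Lgr4, Lgr6, Axin1, Wnt1, Wnt7a, Sfrp5 and the cell type markers). Pygo2 and Sfrp2 were named as relatives of Pygo1 and Sfrp1. All of these other genes were chosen after their values were seen. The members and lists were chosen with earlier results of these data known. Alternatives were DESeq2 1.42.0, limma 3.58.1 voom with quality weights, other scalings, filters, a fold threshold, fewer libraries, a replicate block and each replicate left out. The steps were tested on simulated data.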

Additional observations from a re-analysis of the deposited data

Results flagged for a closer look

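In 17 of 159 groups of 4 libraries, 1 library stood apart from the other 3 by Dixon's test, which chance gives in about 1 of 20. In normalized counts these were, for the 10 genes, Axin2 (28.1, sorafenib for 7 days replicate 1), Lgr5 (1.75, replicate 3 of the same group), Nkd1 (232, replicate 4 of the same group), Sp5 (1.14, sorafenib for 48 hours replicate 4), Znrf3 (1040, sorafenib for 48 hours replicate 2) and Rnf43 (0.952, sorafenib for 48 hours replicate 3, and 0.928, DMSO for 7 days replicate 4). The values for Sp5 and Rnf43 are single counts. Replicate 2 of sorafenib for 48 hours also stood apart for Myc (6390), Wnt10b (74.1) and Cdh2 (3904), all in its lowered region, and for Garem2 (107). The others were Trp53 (2785) and Garem2 (38.2) with sorafenib for 7 days, Cd44 (499.5) and Ccnd1 (3575) with DMSO for 48 hours, and Jup (5169) and Egln3 (900.7) with DMSO for 7 days.

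The response to sorafenib differed between 7 days and 48 hours for 28 of 40 named genes (interaction in edgeR, FDR under 0.05), where 36.8% of all genes were called. Many of the 40 were named for a large change at either time or for their likeness to Axin2, and nothing is read from the count. Among the 10 genes, the log2 difference was 1.79 for Axin2, -1.40 for Nkd1, 0.26 for Tcf7 and -0.36 for Znrf3. The response was more negative or less positive at 7 days for Wnt2b (-1.73), Fzd6 (-0.41), Fzd3 (-1.07), Fzd4 (-0.90), Rspo3 (-0.94), Rspo1 (-3.40), Amer1 (-0.35), Bcl9 (-0.47), Sfrp4 (-0.60), Sfrp1 (-1.40), Cd44 (-0.90), Glul (-0.41) and Jup (-1.25). It was more positive or less negative for Trp53 (1.27), Btrc (0.60), Tle3 (0.47), Pygo1 (1.58), Ccnd1 (0.81) and Cdh1 (1.09). Garem2 (1.14), Pdk2 (0.91), Rap1gap (2.09), Egln3 (0.98) and Ccng2 (0.88) were chosen for their likeness to Axin2 over these same libraries, a choice that favours positive values. The call for Amer1 was kept in 1 of 16 fits with a library left out.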

How the results depend on the processing

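Of 931 values of the 10 genes under the alternatives, 882 kept their direction and their side of the threshold, 18 lost and 17 gained a call, and 14 changed sign without being called. For the other named genes the figures were 2187, 22, 3 and 5 of 2217. With at least 10 counts in every sample, which left 5 of the 10 genes, 4 were called at 48 hours and 5 at 7 days. With an added absolute log2 fold change of at least 1, 3 were called at 7 days, 2 for the interaction and 1 for time in DMSO. With each replicate left out, 5 to 8 genes were called at 48 hours, 6 to 8 at 7 days, 3 to 5 for the interaction and 5 for time in DMSO. The mean correlation of the deviations of same-numbered replicates was -0.009 at 48 hours and 0.068 at 7 days, over 10646 genes. For replicates of different numbers it was 0.003 and -0.022. Same-numbered replicates were thus slightly closer at 7 days only, and the numbers are not taken as pairs. With a replicate block, 7, 8 and 3 genes were called at 48 hours, at 7 days and for the interaction, where Tcf7 was lost (FDR 0.0694). Time in DMSO could not be fitted with the block.

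Signs changed for uncalled values near 0. Notum for time in DMSO, at -0.689 to 0.388 with a replicate left out, was 0.011 with DESeq2, 0.01 with its size factors, 0.009 with no filter and 0.003 with only the libraries compared. Tcf7 at 48 hours was 0.037 with no filter and -0.048 to 0.001 with a replicate left out. With total counts alone, which moved the median of all genes for the interaction to 0.116 from 0.022, the interaction was 0 for Ctnnb1, 0.019 for Lef1 and 0.004 for Dvl1. With a replicate left out, the interaction was -0.223 to 0.085 for Lef1 and -0.083 to 0.144 for Myc, and Btrc at 48 hours was -0.226 to 0.022. With voom, the interaction of Myc was -0.05 and Btrc at 48 hours was 0.011. The cause was not tested. Sp5, Rnf43 and Notum had at most 7, 4 and 20 counts in a library.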
